A study of Rattus norvegicus with 9 samples.

Results

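Dopamine acts on the cortex through 5 receptor genes, of which Drd1, Drd2, Drd4 and Drd5 are described here together with both monoamine oxidases, Maoa and Maob, and with Ppp1r1b, which encodes DARPP-32. These 7 genes were taken by symbol from the 37209 genes of the read count table of a rat frontal cortex RNA-seq experiment. Drd3 is described with the signalling genes.

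In the frontal cortex, dopamine arrives from midbrain neurons. D1-class receptors (D1 and D5, from Drd1 and Drd5) couple to stimulatory G proteins and raise cAMP, whereas D2-class receptors (D2 and D4, from Drd2 and Drd4) couple to inhibitory G proteins and lower it. DARPP-32 sits downstream: once phosphorylated by cAMP-dependent protein kinase it inhibits protein phosphatase-1, and calcineurin removes that phosphate. Monoamine oxidases A and B are enzymes of the outer mitochondrial membrane that deaminate dopamine and other monoamines. MAO-A is found mainly in catecholamine neurons, while MAO-B is known from astrocytes and serotonin neurons. The question posed by the design was whether early maternal separation changes the adult cortical transcriptome, and whether electroacupuncture changes it in separated animals.

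The animals were 9 male Wistar rats aged 14 weeks, 3 in each of the groups Control, MS and MS+EA. MS and MS+EA rats had been parted from their mothers for 4 h daily between postnatal day (PND) 1 and PND 21, and Control litters were left undisturbed until weaning. MS+EA rats received electroacupuncture, an electrical stimulation through needles, at the head points Baihui (GV20) and Yintang (GV29) on alternate days between PND 61 and PND 81 under isoflurane. Control and MS rats were anaesthetised without needling, so needling itself and the current cannot be told apart here. The study tested rats of these groups for behaviour, and its text does not state whether the 9 sequenced rats were among them. The labels name the tissue as frontal cortex and give no batch, date or litter, and if rats of a group shared a litter the p-values measure the spread between litter mates only.

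The total was between 16153292 and 19007907 counts in Control rats, between 16106381 and 17243320 in MS rats and between 12479905 and 14913736 in MS+EA rats, so every MS+EA library was shallower than every other library. Expression is given as CPM, the read count scaled to the size of the library after TMM normalization, with the SD over 3 rats. CPM is not corrected for transcript length, and levels are therefore compared between rats and not between genes. Differential expression meant a fold change above 1.5 with an adjusted p under 0.05 in edgeR's quasi-likelihood test over 16837 genes. Of the 7 genes, 6 passed the filter on low counts and Drd4 did not. All 7 were found in the reference annotation, where none overlapped another gene and Maoa and Maob lay next to each other.

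None of the 6 tested genes was differentially expressed in any comparison (edgeR), and DESeq2 and limma-trend also gave 0 of 6 at an adjusted p under 0.05. Over all genes tested by edgeR, 0.0238% passed both thresholds between MS and Control, 0.0178% between MS+EA and MS, and 1.37% between MS+EA and Control. Without the fold change threshold, the shares were 0.0238%, 0.0178% and 5.40%, and again none of the 6 genes was among them. At an unadjusted p under 0.05 the count was 0 of 6 between MS and Control, against a background of 10.6% of all genes. It was 2 of 6 between MS+EA and MS, against 12.4%: Drd1 was higher, as were 6.01% of all genes, and Maob was lower, as were 6.42%. For MS+EA against Control it was 0 of 6, against 22.5%. The count of genes whose groups did not overlap was 0 of 6 between MS and Control, where 17.6% of all genes were apart. It was 2 of 6 between MS+EA and MS, where 17.9% were apart, and 1 of 6 between MS+EA and Control, where 25.9% were apart. With so few genes, these counts are not set apart from the background.

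**Figure D1:**
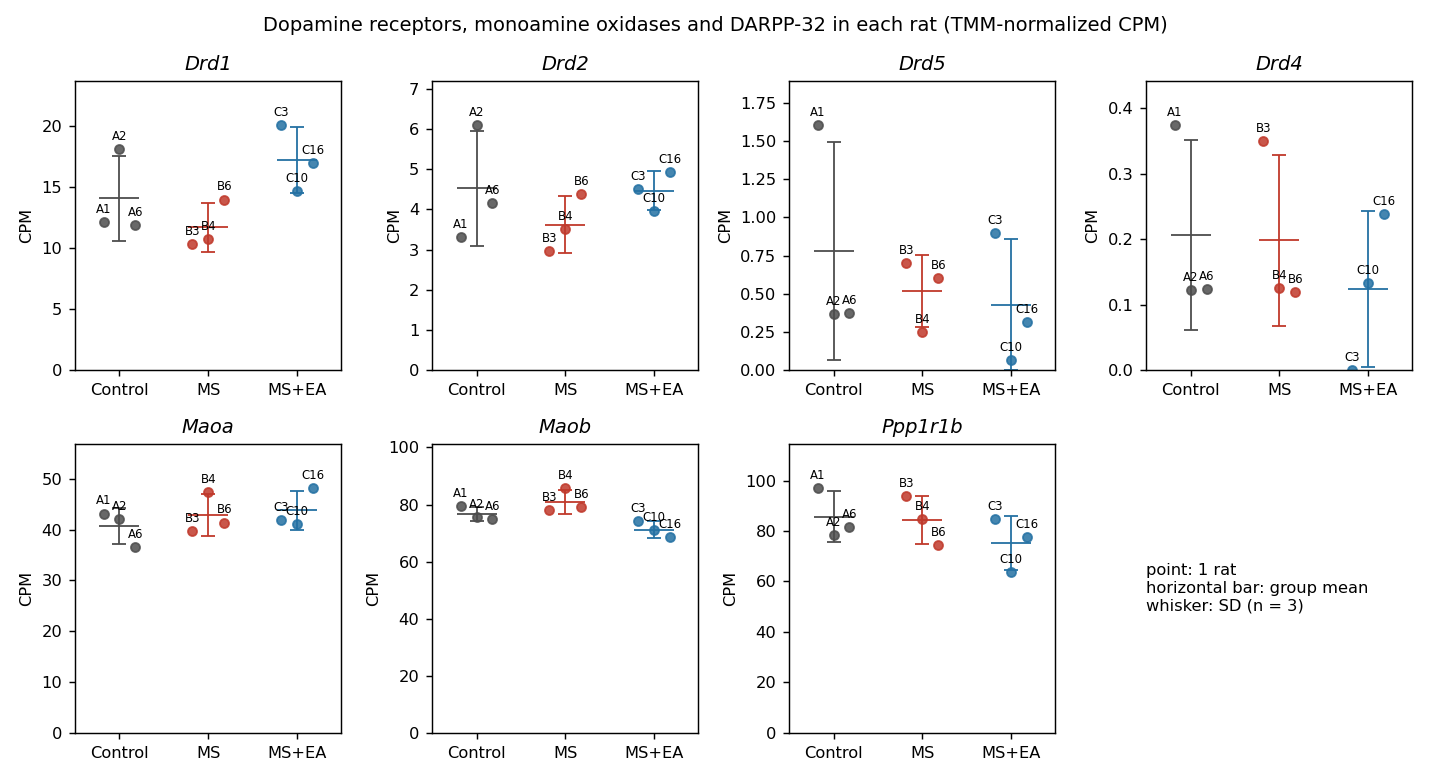
Expression of the 7 genes in CPM (vertical axis, from 0) in each rat of the Control, MS and MS+EA groups (horizontal axis), with 1 point per rat, the group mean as a horizontal bar and the SD as a whisker (n = 3). The 3 MS+EA rats lie above the 3 MS rats for Drd1 and below them for Maob, and the groups overlap in every other panel between these groups.

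Drd1, the main D1-class receptor gene of the forebrain, was measured at 12.2, 18.2 and 11.9 CPM in Control rats A1, A2 and A6. In MS rats B3, B4 and B6 it was at 10.4, 10.8 and 14.0 CPM. In MS+EA rats C3, C10 and C16 it was at 20.1, 14.7 and 17.0 CPM. Every MS+EA rat was above every MS rat, while the Control group spanned most of this range, with A2 close to the upper and the other rats within the lower part. The group means were 11.7 ± 1.99 CPM in MS, 14.1 ± 3.52 in Control and 17.2 ± 2.73 in MS+EA. Neighbours in this order did not differ beyond the spread between rats. For Drd1, the log2 fold change was -0.27 (SE 0.188) between MS and Control and 0.29 (SE 0.186) between MS+EA and Control, with adjusted p of 0.650 and 0.379 (edgeR).

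MS+EA and MS were the outer groups of that order, and the log2 fold change of Drd1 was 0.56 (SE 0.188, 95% interval 0.15 to 0.97), or 1.47-fold (1.11 to 1.95). Its unadjusted p was 0.0110, a value reached by 3.83% of all genes, and its adjusted p was 0.286 (edgeR). This difference was larger than the spread between rats for the gene taken alone but did not pass the adjustment over all genes. With any single rat left out, the log2 fold change lay between 0.44 and 0.71. The comparisons of MS with Control and of MS+EA with MS share the 3 MS rats, so their opposite signs are not independent of each other. Between MS+EA and Control, the log2 fold change lay between 0.17 and 0.52 with any single rat left out. The upper end was reached without A2, with an unadjusted p of 0.0132 and an adjusted p of 0.125 (edgeR). Over all alternatives the unadjusted p of this comparison went up to 0.402 (edgeR, DESeq2 or limma-trend).

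Cortical D1 receptors are well known from neurons of layer 6 and 6b, and the summed level of 12 markers of these layers is given beside Drd1. It was 401.1, 451.3 and 401.2 CPM in Control rats A1, A2 and A6. In MS rats B3, B4 and B6 it was 371.1, 350.5 and 378.8 CPM, and in MS+EA rats C3, C10 and C16 it was 400.0, 397.3 and 403.3 CPM. The MS rats were below all others and A2 was above all others, as it was for Drd1 and Drd2 within the Control group. Crym, a large part of this sum, was at 121.7 ± 10.6, 94.3 ± 8.26 and 86.5 ± 18.9 CPM in Control, MS and MS+EA rats. Its mean was thus lower in MS+EA than in MS, unlike that of Drd1. Of the 12 markers, 10 had log2 fold changes above 0 and 2 below 0 between MS+EA and MS. At an unadjusted p under 0.05, 4 of the 12 markers were higher and 0 lower between MS+EA and MS (median log2 fold change 0.44), where 6.01% of all genes were higher and 6.42% lower. Between MS and Control 0 were higher and 3 lower (median -0.36), against 7.06% and 3.55% of all genes, and between MS+EA and Control 1 was higher and 1 lower (median 0.11), against 11.9% and 10.6%. Syt6 and Cplx3 were among the 3 lower between MS and Control. The study had already reported both from these data as changed in MS rats and reversed after electroacupuncture. The counts of this list are therefore not independent of that report. None of the 12 was at 0 counts in all rats. The part of the layer 6 markers in the Drd1 values was not tested. In bulk tissue, fewer cells of a type and less RNA per cell cannot be told apart.

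Drd2 encodes the D2 receptor, which is both a postsynaptic receptor and the autoreceptor of dopamine neurons. It was measured at 3.31, 6.09 and 4.16 CPM in Control rats A1, A2 and A6, at 2.97, 3.50 and 4.38 CPM in MS rats, and at 4.50, 3.95 and 4.92 CPM in MS+EA rats. The groups overlapped in every comparison, with A2 above all other rats. Means were 3.62 ± 0.714 CPM in MS, 4.46 ± 0.488 in MS+EA and 4.52 ± 1.42 in Control, and no neighbours in this order differed beyond the spread between rats. Its log2 fold change was -0.32 (SE 0.250) between MS and Control and 0.30 (SE 0.254) between MS+EA and MS, with adjusted p of 0.692 and 0.665 (edgeR). For MS+EA against Control it was -0.02 (SE 0.250, 95% interval -0.56 to 0.52), which turned to 0.01 with total counts and to 0.02 with limma-trend, and to 0.26 without A2 and 0.06 without C10.

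The ratio of Drd1 to Drd2 counts does not depend on library size, since both genes are read from the same library. It was 3.68, 2.98 and 2.87 in Control rats, 3.49, 3.07 and 3.19 in MS rats and 4.46, 3.71 and 3.45 in MS+EA rats. Only C16 of the MS+EA group fell within the range of the MS rats. The means were 3.17 ± 0.439, 3.25 ± 0.216 and 3.87 ± 0.524. The two-sided exact permutation p was 0.7 between MS and Control and 0.2 for MS+EA against either group. The smallest p that 3 rats against 3 allow is 0.1.

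Drd5 encodes the other D1-class receptor and was thinly covered. Control rats A1, A2 and A6 had 30, 6 and 6 reads. The MS group had 12, 4 and 10 reads in B3, B4 and B6, and the MS+EA group had 13, 1 and 4 reads in C3, C10 and C16. In each group 1 rat held the highest count, namely A1, B3 and C3, and the groups overlapped throughout. Pooled over the group, the level was 0.820 CPM in Control (95% exact Poisson interval 0.591 to 1.11), 0.522 in MS (0.341 to 0.765) and 0.429 in MS+EA (0.254 to 0.678). These intervals cover counting error only. Log2 fold changes of Drd5 were -0.61 (SE 0.737), -0.27 (SE 0.819) and -0.88 (SE 0.777) in MS against Control, MS+EA against MS and MS+EA against Control. The 95% interval of the last ran from -2.57 to 0.80. Without A1 the log2 fold change was 0.48 between MS and Control and 0.21 between MS+EA and Control, and between MS+EA and MS it was 0.01 without B3 and 0.25 without C10. No direction can therefore be given for Drd5 at this depth.

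Drd4, the other D2-class receptor gene, had 7, 2 and 2 reads in Control rats, 6, 2 and 2 reads in MS rats and 0, 2 and 3 reads in MS+EA rats. Pooled, this was 0.215 CPM in Control (95% exact Poisson interval 0.107 to 0.384), 0.201 in MS (0.0962 to 0.369) and 0.119 in MS+EA (0.0387 to 0.278). No difference was detectable at this depth. In a fit of all 25954 genes with at least 1 read, the log2 fold change of Drd4 was -0.08 (SE 0.994) between MS and Control, -0.69 (SE 1.10) between MS+EA and MS and -0.77 (SE 1.09) between MS+EA and Control. A low count does not always mean little RNA in this table. Gnas, the widely expressed gene of the stimulatory G protein, was listed at 0 reads in 7 of 9 rats and at no more than 3 in the others, and Npy, a neuropeptide gene of cortical interneurons, at 2 to 13 reads. Whether the way reads were assigned to genes also lowered Drd4 or Drd5 was not tested.

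Maoa encodes monoamine oxidase A, which prefers serotonin and noradrenaline and also degrades dopamine. It was measured at 43.1, 42.1 and 36.6 CPM in Control rats, at 39.7, 47.4 and 41.4 CPM in MS rats and at 41.9, 41.2 and 48.2 CPM in MS+EA rats. The groups overlapped throughout, and the means of 40.6 ± 3.50, 42.8 ± 4.05 and 43.8 ± 3.86 CPM lay within 1 SD of each other. Maoa had log2 fold changes of 0.07 (SE 0.100), 0.03 (SE 0.101) and 0.10 (SE 0.101) in MS against Control, MS+EA against MS and MS+EA against Control. Its sign was not stable, at -0.02 or -0.04 between MS+EA and MS without B3 or C16. The 95% intervals were -0.14 to 0.29, -0.19 to 0.25 and -0.11 to 0.32, so a 1.5-fold change in either direction lay outside each of them.

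Maob encodes monoamine oxidase B. It was measured at 79.5, 75.5 and 75.0 CPM in Control rats A1, A2 and A6, at 78.0, 85.8 and 79.1 CPM in B3, B4 and B6 of the MS group, and at 74.2, 71.0 and 68.5 CPM in MS+EA rats C3, C10 and C16. In TMM-normalized CPM all 3 MS+EA rats were below all 6 other rats, while MS and Control rats overlapped. Scaled to total counts without TMM, C3 was above A2, A6 and B6, so MS+EA rats then overlapped both other groups. The means were 71.2 ± 2.86 CPM in MS+EA, 76.7 ± 2.46 in Control and 80.99 ± 4.25 in MS. For MS+EA against MS the log2 fold change was -0.18 (SE 0.0689, 95% interval -0.33 to -0.04), or 0.880-fold (0.793 to 0.976). Its unadjusted p was 0.0194, reached by 6.05% of all genes, and its adjusted p was 0.319 (edgeR). Without B4, the highest rat, the unadjusted p was 0.120, and without C16, the lowest, it was 0.0670. Neighbours in this order did not pass the test, with a log2 fold change of 0.08 (SE 0.0684) between MS and Control and of -0.11 (SE 0.0690) between MS+EA and Control, and adjusted p of 0.726 and 0.392 (edgeR).

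Since MAO-B is known from astrocytes, the 10 astrocyte markers are given beside Maob. At an unadjusted p under 0.05, 0 were higher and 2 were lower in MS+EA than in MS rats (median log2 fold change -0.17), where 6.42% of all genes were lower. Their summed level was between 4532 and 5371 CPM in MS+EA rats, between 5256 and 5606 in MS rats and between 4790 and 5740 in Control rats, so these groups overlapped. No astrocyte marker was at 0 in all rats, and the part of these cells in the Maob values was not tested.

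The ratio of Maob to Maoa counts was 1.84, 1.79 and 2.05 in Control rats, 1.96, 1.81 and 1.91 in MS rats and 1.77, 1.72 and 1.42 in MS+EA rats. All 3 MS+EA rats were below the lowest rat of either other group. The means were 1.89 ± 0.136, 1.90 ± 0.0779 and 1.64 ± 0.189. The difference was -0.257 between MS+EA and MS and -0.255 between MS+EA and Control, each with a two-sided exact permutation p of 0.1, the smallest that this design allows. C16 had both the highest Maoa and the lowest Maob. Without C16 the differences were -0.148 and -0.147. Between MS and Control the ratio differed by 0.00151 (two-sided exact permutation p = 1).

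**Figure D2:**
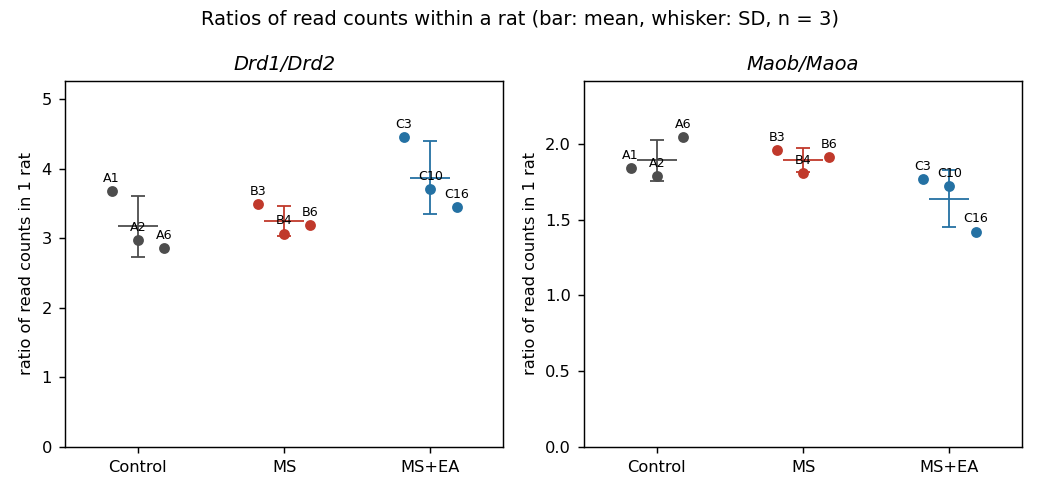
Ratio of read counts in each rat (vertical axis, from 0, no unit) for Drd1 to Drd2 and for Maob to Maoa in the Control, MS and MS+EA groups, with 1 point per rat, the mean as a bar and the SD as a whisker (n = 3). The Maob to Maoa ratio of the MS+EA rats, from 1.42 to 1.77, lies below that of all other rats, from 1.79 to 2.05.

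Ppp1r1b, the DARPP-32 gene, was measured at 97.1, 78.3 and 81.5 CPM in Control rats, at 93.7, 84.9 and 74.5 CPM in MS rats and at 84.7, 63.7 and 77.5 CPM in MS+EA rats. The groups overlapped in every comparison. The means were 75.3 ± 10.7 CPM in MS+EA, 84.4 ± 9.58 in MS and 85.6 ± 10.1 in Control, and no neighbours in this order differed beyond the spread. Log2 fold changes of Ppp1r1b were -0.02 (SE 0.117), -0.16 (SE 0.118) and -0.19 (SE 0.118) in MS against Control, MS+EA against MS and MS+EA against Control, with adjusted p of 0.969, 0.595 and 0.377 (edgeR). Without A1 or B6 the first of these was 0.08 or 0.06. The 95% interval was -0.28 to 0.23 between MS and Control and -0.44 to 0.07 between MS+EA and Control.

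**Figure D3:**
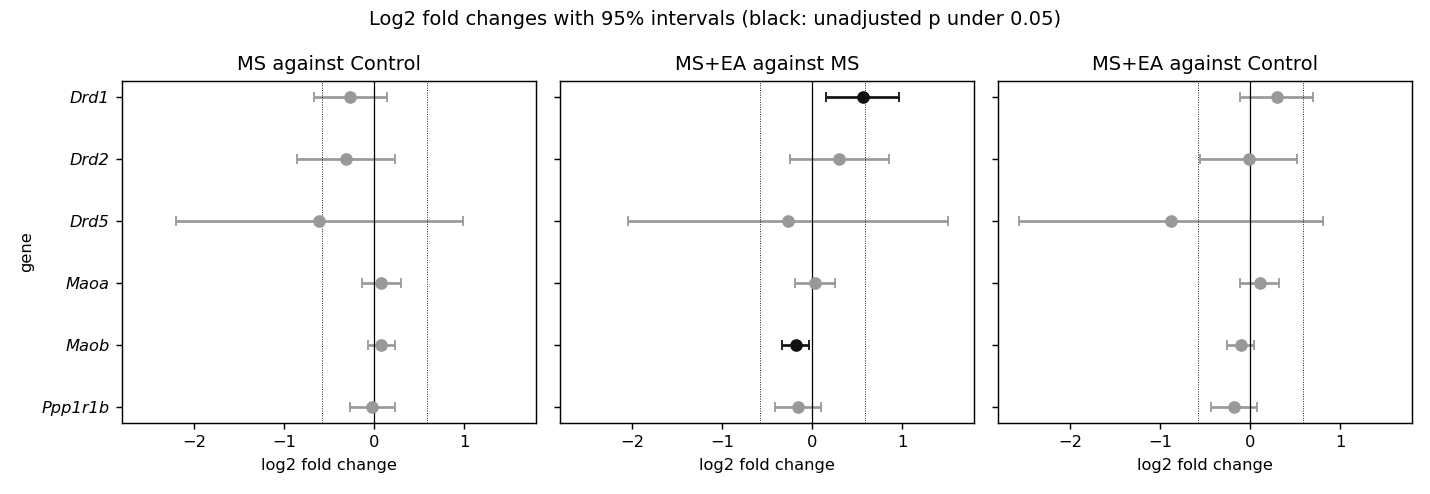
Log2 fold change (horizontal axis) of the 6 tested genes (vertical axis) in the 3 comparisons, with 95% intervals as whiskers and dotted lines at a 1.5-fold change. Intervals of Drd1 (0.15 to 0.97) and Maob (-0.33 to -0.04) between MS+EA and MS are the only ones that do not reach 0, and those of Drd5 are the widest.

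Drd1, Drd2 and Ppp1r1b are much more abundant in the striatum than in cortex, and a piece of striatum in a dissection would carry all of them. The summed level of 12 striatal markers was between 240.4 and 243.0 CPM in Control rats, between 235.6 and 272.4 in MS rats and between 239.6 and 297.3 in MS+EA rats. Isl1, 1 of these 12 markers, was at 0 in all 9 rats, though a low count does not always mean little RNA in this table. Of the 11 striatal markers tested, 1, 1 and 2 were higher and 0 were lower at an unadjusted p under 0.05 in MS against Control, MS+EA against MS and MS+EA against Control, with median log2 fold changes of 0.09, 0.03 and 0.09. Over all genes, 7.06%, 6.01% and 11.9% were higher and 3.55%, 6.42% and 10.6% lower in these comparisons. C3 and C10 had the highest sums and C16 a sum of 239.6 CPM. The part of striatal tissue in the values of Drd1, Drd2 and Ppp1r1b was not tested.

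Over the 9 rats, log2 CPM of Drd1 and Drd2 had a Pearson correlation of 0.82, and that of Drd5 and Ppp1r1b one of 0.80. Drd1 and Maob were at -0.62, and Ppp1r1b was at -0.40 with Drd1 and at -0.49 with Drd2. These are descriptions over rats of 3 groups and share the libraries' depth and composition. Drd5 had 30 reads in A1 and 1 to 13 in the other rats, and A1 was also highest for Ppp1r1b. The part of A1 in the correlations of Drd5 was not tested. Among all tested genes, the most similar to Drd1 were Slc22a15 (0.95), Setdb1 (0.94) and RT1-N3 (0.92). For Drd2 they were Eapp (0.95), Evi5 (0.94) and Sbds (0.91), and for Drd5 they were Dennd5a (0.98), Exosc5 (0.94) and Zfp394 (0.94). Cldn1 (0.94) and LOC691485 (0.94) were among the 3 genes most similar to Maoa. Maob was most similar to Adtrp (0.96), Extl3 (0.96) and Ppm1h (0.94), and Ppp1r1b to Rpusd1 (0.97), Acy3 (0.96) and Eif4ebp2 (0.96). Where ranks were used in place of values, only Evi5, Exosc5 and Adtrp stayed among the 3 genes nearest to Drd2, Drd5 and Maob. No other pairing was kept, and with 9 rats and 16837 genes some high correlations are found for any gene.

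The other genes of the pathway were described as 5 lists. In none of them was a gene differentially expressed by both thresholds (edgeR). All counts below are at an unadjusted p under 0.05, and are read against the shares over all genes, which were 7.06% higher and 3.55% lower between MS and Control, 6.01% and 6.42% between MS+EA and MS, and 11.9% and 10.6% between MS+EA and Control.

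Of 10 genes of dopamine synthesis and vesicle loading, 7 were tested. Between MS and Control 0 were higher and 1 lower, between MS+EA and MS 2 higher and 0 lower, and between MS+EA and Control 0 higher and 1 lower, with medians of -0.14, 0.02 and -0.03. Th, tyrosine hydroxylase, the rate-limiting enzyme of dopamine synthesis, had 38, 34 and 27 reads in Control rats, 20, 19 and 22 in MS rats and 21, 23 and 45 in MS+EA rats. In CPM the MS rats, between 1.16 and 1.32, were below all other rats. The log2 fold change of Th was -0.65 (SE 0.367, unadjusted p = 0.0999) between MS and Control and 0.82 (SE 0.370, unadjusted p = 0.0457) between MS+EA and MS, with adjusted p of 0.550 and 0.390 (edgeR). Its MS+EA mean was carried by C16, at 3.57 CPM against 1.46 and 1.54 in C3 and C10. Spr, which makes the cofactor tetrahydrobiopterin, had log2 fold changes of -0.33 between MS and Control and -0.32 between MS+EA and Control. Qdpr, which regenerates the cofactor, was 0.50 higher on the log2 scale between MS+EA and MS, with overlapping groups, C16 being at 134.1 CPM and C3 and C10 at 82.6 and 65.3. Slc18a2, the vesicular monoamine transporter, was not tested, with 11, 21 and 15 reads in the Control, MS and MS+EA groups.

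Transcripts of dopamine and noradrenaline neurons' own reuptake carriers were nearly absent: Slc6a3, the dopamine transporter, had 3, 9 and 4 reads in the Control, MS and MS+EA groups, and Slc6a2, the noradrenaline transporter, 2, 5 and 1. Both are made in the brainstem and midbrain, and so is Slc6a4, the serotonin transporter, which did not pass the filter either. The 2 uptake genes tested of 5 were Slc22a3 and Slc29a4, which encode low-affinity carriers of monoamines. Slc29a4 was at 8.70 ± 2.22, 6.05 ± 1.26 and 5.10 ± 1.40 CPM in Control, MS and MS+EA rats. Its log2 fold change was -0.52 (SE 0.238, adjusted p 0.462, edgeR) between MS and Control and -0.78 (SE 0.244, adjusted p 0.0816, edgeR) between MS+EA and Control, where all MS+EA rats were below all Control rats. Slc22a3 was among none of the counts, and the medians of this pair of genes were -0.19, -0.14 and -0.33.

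Breakdown beside the oxidases was represented by 10 genes, of which 9 were tested. Dbh, which turns dopamine into noradrenaline, had 6, 4 and 3 reads per group and was not tested. Akr1a1, an aldehyde reductase, was at 190.3 ± 2.80 CPM in Control, 183.7 ± 10.7 in MS and 152.5 ± 4.0 in MS+EA, with every MS+EA rat below every other rat. Its log2 fold change was -0.27 (SE 0.0626, adjusted p 0.195) between MS+EA and MS and -0.32 (SE 0.0625, adjusted p 0.0166) between MS+EA and Control (edgeR), under the 1.5-fold threshold. Aldh1a1, an aldehyde dehydrogenase, had log2 fold changes of 0.42 and 0.41 in MS and MS+EA against Control, and Sult1a1, a phenol sulfotransferase, one of 1.10 between MS and Control with overlapping groups, where B4 was at 19.1 CPM and the other MS rats at 5.65 and 6.91. In all, 2, 0 and 1 genes were higher and 0, 1 and 1 lower in MS against Control, MS+EA against MS and MS+EA against Control, with medians of 0.10, -0.12 and -0.01.

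Receptor signalling was represented by 28 genes (G proteins, adenylyl cyclases, regulators of G protein signalling, receptor kinases, arrestins and interacting proteins), of which 26 were tested. Between MS and Control 0 were higher and 0 lower (edgeR, median -0.03). In MS+EA against MS 0 were higher and 7 lower (median -0.09), and between MS+EA and Control 0 were higher and 9 lower (median -0.14), while 20, 20 and 23 of 26 log2 fold changes were below 0 in MS against Control, MS+EA against MS and MS+EA against Control. In the last of these the median of all tested genes was 0.01. Ncs1, a calcium sensor that lessens D2 receptor desensitisation, and Nsg1, an endosomal protein of receptor trafficking, were among both counts. Nsg1 was at 154.5 ± 1.94, 152.5 ± 12.5 and 125.2 ± 5.55 CPM in Control, MS and MS+EA rats, and its log2 fold change against Control was -0.30 (SE 0.0709, adjusted p 0.0319, edgeR). Ncs1 was at 794.0 ± 52.7, 785.5 ± 35.1 and 648.2 ± 48.0 CPM, with -0.29 (SE 0.0750, adjusted p 0.0422, edgeR), a call that was lost with total-count scaling and in 9 of 17 alternatives in all. In both genes all MS+EA rats were below all 6 other rats.

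The kinases that phosphorylate activated receptors were among these counts with small log2 fold changes. Adrbk1 (Grk2) had log2 fold changes of -0.26 against MS and -0.30 against Control, and its adjusted p against Control was 0.0525 (edgeR). Adrbk2 (Grk3) and Grk6 were counted against Control, at -0.18 and -0.19, and Grk5 against MS, at -0.18. Arrb1, an arrestin that binds the phosphorylated receptor, was at 15.7 ± 2.68, 13.4 ± 1.31 and 10.8 ± 1.14 CPM, with -0.53 (SE 0.151, adjusted p 0.0592, edgeR) against Control. Gnai2, an inhibitory G protein subunit, had -0.17 and -0.26 against MS and Control, and Adcy1, a calcium-stimulated adenylyl cyclase, -0.17 against both. Rgs4 (-0.26 against MS) and Gpsm1 (-0.24 against Control) completed these counts. MS+EA libraries were the shallowest, and the part of depth in these differences was not tested. Drd3 itself had 2, 3 and 3 reads in the Control, MS and MS+EA groups and was not tested.

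**Figure D4:**
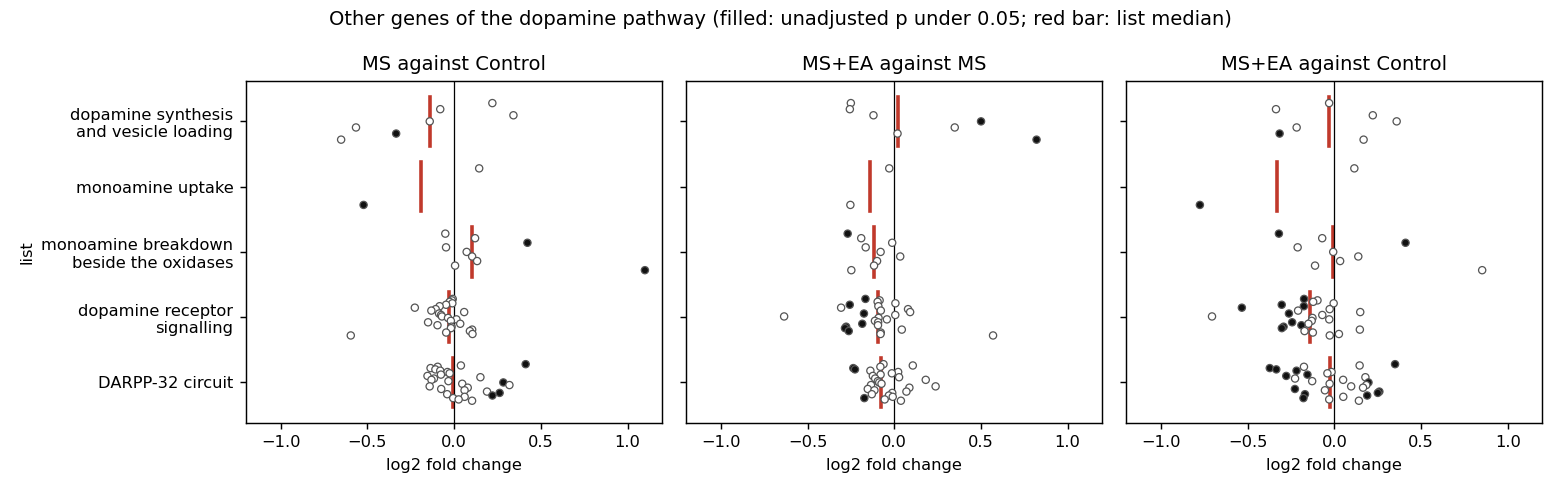
Log2 fold change (horizontal axis) of each tested gene of the 5 pathway lists (vertical axis) in the 3 comparisons, with 1 point per gene, filled where the unadjusted p was under 0.05, and a red bar at the list median. Of the 26 receptor signalling genes, 20, 20 and 23 lie below 0 in MS against Control, MS+EA against MS and MS+EA against Control, with 0, 7 and 9 filled points, all of them below 0.

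The circuit of DARPP-32 was represented by 30 genes of protein kinase A, protein phosphatase-1 and -2A, calcineurin, Cdk5, casein kinases, phosphodiesterases and related phosphoproteins, of which 29 were tested. Between MS and Control 4 were higher and 0 lower (median -0.01). These were Arpp19 (log2 fold change 0.41), Ppp1cb (0.28), Ppp3r1 (0.26) and Prkacb (0.22), a phosphoprotein, a catalytic subunit of phosphatase-1, the regulatory subunit of calcineurin and a catalytic subunit of protein kinase A. In MS+EA against MS 0 were higher and 3 lower (median -0.07), namely Cdk5r1 (-0.24), Cdk5r2 (-0.23) and Prkar1b (-0.17). In MS+EA against Control 5 were higher and 8 lower (median -0.03). The higher ones were Arpp19 (0.35), Ppp3cb (0.26), Ppp3r1 (0.25), Ppp1cb (0.20) and Prkacb (0.19). The lower ones were Cdk5r1 (-0.37), Cdk5r2 (-0.33), Csnk2b (-0.28), Ppp2r5d (-0.23), Csnk1d (-0.22), Prkar1b (-0.18), Prkaca (-0.17) and Csnk2a2 (-0.16).

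Of these genes, 2 had an adjusted p under 0.05 between MS+EA and Control. Cdk5r1 encodes p35, the activator of Cdk5, a kinase that phosphorylates DARPP-32. It was at 130.2 ± 13.6, 118.5 ± 11.4 and 100.6 ± 4.87 CPM in Control, MS and MS+EA rats, with an adjusted p of 0.0363 (edgeR). Arpp19, a cAMP-regulated phosphoprotein, was at 377.7 ± 27.0, 502.7 ± 33.8 and 481.5 ± 59.7 CPM, with an adjusted p of 0.0475 (edgeR), and all MS and MS+EA rats were above all Control rats. Both changes were under the 1.5-fold threshold. For Akr1a1, Nsg1, Ncs1, Cdk5r1 and Arpp19, the 5 pathway genes with such an adjusted p, the sign held in all 17 alternatives of each gene. The call at an adjusted p under 0.05 was lost for all 5 without A1, without A6 or without C16. It was lost in 3, 5, 9, 6 and 8 of the 17 alternatives in the order of these names, which for Ncs1 included total-count scaling, for Arpp19 RLE scaling, and for both the fit of only the 6 rats compared. In that order, the highest adjusted p over the alternatives was 0.0745, 0.117, 0.176, 0.157 and 0.150 (edgeR, DESeq2 or limma-trend).

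**Figure D5:**
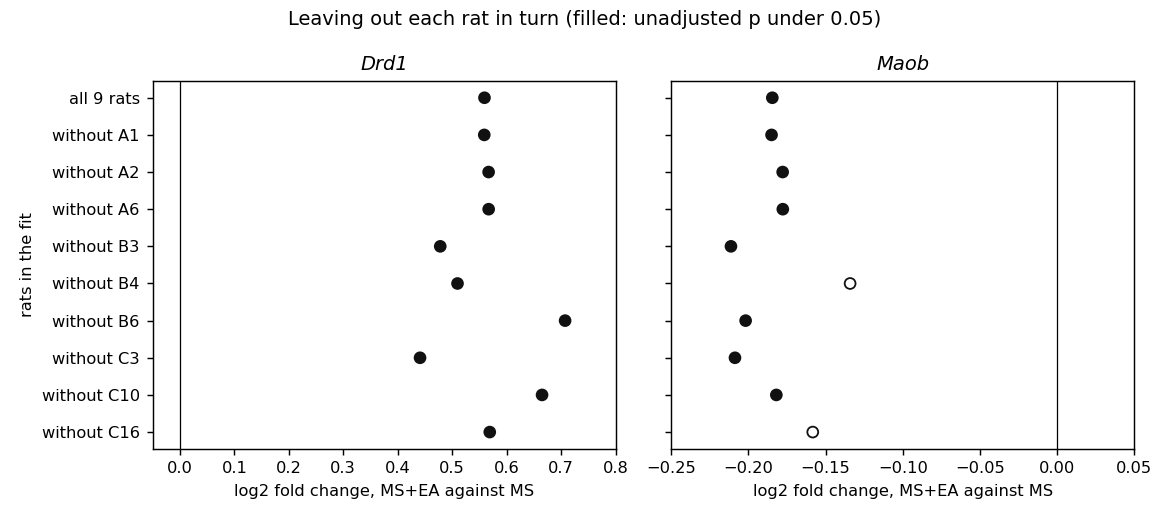
Log2 fold change between MS+EA and MS (horizontal axis) of Drd1 and Maob in the fit of all 9 rats and with each rat left out in turn (vertical axis), filled where the unadjusted p was under 0.05. Drd1 stays filled throughout, between 0.44 and 0.71, and Maob is open without B4 or C16.

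The tissue was checked against markers of the other cells it could hold. Of 11 midbrain dopamine neuron markers, En1, Foxa1 and Foxa2 were at 0 in all rats, and Pitx3 and Lmx1b had 0 to 7 reads. The 4 tested were Th, Ddc, Nr4a2 and Aldh1a1, and Nr4a2 is also among the layer 6 and 6b markers. Of these 4, 1, 2 and 1 were higher and 0 lower at an unadjusted p under 0.05 in MS against Control, MS+EA against MS and MS+EA against Control. Over all genes, 7.06%, 6.01% and 11.9% were higher in these comparisons. The 12 markers of layer 5 and the upper layers were summed to between 990.2 and 1161 CPM over all rats, with medians of 0.05, -0.04 and 0.04. The 10 tested interneuron markers had medians of 0.02, -0.09 and -0.17 and sums between 724.5 and 954.9 CPM. Endothelial and pericyte markers (8) were summed to between 239.0 and 263.3 CPM in Control, between 320.8 and 384.0 in MS and between 274.3 and 324.5 in MS+EA rats. At an unadjusted p under 0.05, 4 of 8 were higher and 0 lower between MS and Control, against 7.06% and 3.55% of all genes. Between MS+EA and MS, 0 were higher and 3 lower, against 6.01% and 6.42% of all genes. Of these 8, 1 passed both thresholds between MS and Control (edgeR), where 0.0238% of all genes did. Oligodendrocyte markers (8) were summed to between 2115 and 4349 CPM in MS+EA rats, 1927 and 3006 in MS rats and 2192 and 3353 in Control rats, with medians of -0.22, 0.40 and 0.15. Microglia markers (8) were summed to between 207.0 and 286.1 CPM over all rats, with medians of -0.13, -0.09 and -0.22. Choroid plexus and ependyma markers reached 21.2 CPM in B4 and lay between 2.21 and 7.49 in the other rats, with medians over 5 tested markers of 1.29, -0.74 and -0.29. B4 was also the MS rat with the highest Maoa and Maob, and the part of this in the Maob values was not tested.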

How the data were processed

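The authors isolated total RNA from frontal cortex, depleted rRNA, sequenced the libraries on a HiSeq X instrument, filtered reads with FastQC and mapped them to Rnor_6.0. The submitters' processing notes name HISAT2 2.0.4. The values deposited by the authors are whole-number read counts per gene, without normalization. The counting program, its strand setting and its treatment of reads with several locations are not given in the sources used here.

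Groups were taken from the labels. Counts of all 9 rats were analysed with edgeR 4.0.16 in R 4.3.3 (TMM, filterByExpr with a minimum count of 10, quasi-likelihood F test at package defaults, 1 mean per group), with Benjamini-Hochberg adjustment over 16837 genes. EBSeq, which the study's methods name, was not used. Correlations were computed on log2 CPM with a prior count of 3. Ratios were compared by two-sided exact permutation over rats. Totals of 12479905 to 19007907 counts set the counting error. A detection floor of 3 counts was set beforehand, but the filters on low counts did not use it. The alternatives were RLE or total-count scaling, other filters on low counts, DESeq2 1.42.0, limma-trend (limma 3.58.1), bias-adjusted deviances, leaving out each rat in turn, a call without a fold change threshold and a fit restricted to the 6 rats compared. The procedure was tested on simulated counts. Tables and plots were made with matplotlib 3.10.9, numpy 2.4.6 and pandas 2.3.3 in Python 3.11.15.

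The 7 genes, the pathway and marker lists and the tests were chosen with earlier results of these data known. Named were the 7 genes, the 3 most correlated genes of each tested one, every pathway gene with an unadjusted p under 0.05 in any comparison, and Drd3, Th, Slc6a3, Slc18a2 and Dbh. Some genes under this rule are not reported here. Gnas, Npy, Slc6a2, Slc6a4, Slc22a3, Syt6, Cplx3, Ddc, Nr4a2 and Crym were named after their values were seen. Symbols missing from the table were sought through RefSeq synonyms, which gave Adrbk1 for Grk2 and Adrbk2 for Grk3 and, with less certainty, Slco1a2 for the endothelial marker Slco1a4. Hs3st4, a layer 6 marker, was not found. The reference annotation (GRCr8) differs from the build of the files and was used for names and neighbours only.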

Additional observations from a re-analysis of the deposited data

How the results depend on the processing

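No paired analysis was possible because each rat belongs to a single group and the groups share fewer than 2 numbers. Over 18 comparisons of the tested genes and 300 alternative values, 287 kept their direction, 13 were reversed and 0 reached an adjusted p under 0.05. Between MS+EA and Control, Drd2 turned to 0.0059 with total counts and to 0.0176 with limma-trend. With 1 rat left out, log2 fold changes that reversed ranged from -0.205 to 0.2568 for Drd2 between MS+EA and Control, from -0.9463 to 0.4825, -1.4511 to 0.2511 and -2.0626 to 0.2113 for Drd5 in MS against Control, MS+EA against MS and MS+EA against Control, from -0.0046 to 0.1256 and -0.0445 to 0.1158 for Maoa in MS against Control and MS+EA against MS, and from -0.1052 to 0.0776 for Ppp1r1b in MS against Control. With total counts, 1 of the 6 genes and not 2 had an unadjusted p under 0.05 between MS+EA and MS (edgeR), where Maob was at 0.0676. With 1 rat left out this count was 1 to 2, and between MS+EA and Control it was 0 to 1. Drd1 kept an unadjusted p under 0.05 between MS+EA and MS under every alternative, with log2 fold changes of 0.44 to 0.71 and adjusted p of 0.116 to 0.580. The count of all genes past both thresholds was 4, 3 and 230 in MS against Control, MS+EA against MS and MS+EA against Control. It was 207, 72 and 469 with every gene of at least 1 count, 70 and 37 in the first 2 comparisons with DESeq2, 11 and 1 there with only the 6 rats compared, and 910 in the last without a fold change threshold. Between MS+EA and MS it was 1 with bias-adjusted deviances and 0 with at least 10 counts in every rat, where 1951 genes had an unadjusted p under 0.05 (edgeR). Leaving out 1 rat gave 2 (without A1 or A2) to 22 (without B3), 1 (without A1 or C16) to 4 (without C10) and 69 (without A1) to 304 (without B4). The cause of these changes was not tested. Depth limits Drd4 and Drd5, whose counts were at most 30 reads per rat.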
